A study of Mus musculus with 21 samples.

Results

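The genes described here are the kinases, cyclins and phosphatases that take a cell from G2 phase into mitosis, together with the transcription factor that switches several of them on: Cdk1, Ccnb1, Ccnb2, Ccna2, Plk1, Cdc25a, Cdc25b, Cdc25c, Wee1 and Foxm1. They were chosen by name, as all probe sets whose symbol in the platform annotation was one of these 10. A probe set is a group of short probes meant to read 1 transcript on an Affymetrix array. Of the 10 genes, 9 had at least 1 probe set, of 18193 genes with a probe set of their own in the annotation. No probe set has Ccnb1 as its only symbol, and probe sets with several symbols were not used. Ccnb1 is therefore not analysed here, which does not show that the array lacks probes for it. The 9 genes had 17 probe sets, of which 15 passed a filter on dim signal (a mean signal of about 15.5 over the arrays). Each of the 9 genes was tested through its brightest probe set, among 12367 genes tested. These 9 probe sets had a signal of at least 58.9 on every array, so none passed the filter through 1 group alone. The 2 members' probe sets below the filter, Foxm1 1437138_at with signals of 0.245 to 16.1 and Cdc25a 1445995_at with 0.542 to 24, were not tested.

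Expression had been measured on 21 arrays of RNA from mouse cerebellar tumours of Patched mice, whose cells had been divided by the surface carbohydrate CD15. Patched (Ptch1) is the receptor that keeps the Hedgehog pathway off, and mice that lose it develop medulloblastoma, a tumour of granule neuron precursors. The groups were CD15 positive tumour cells labelled Math1-GFP (n = 4), CD15 negative tumour cells labelled Math1-GFP (n = 5), CD15 positive cells of conventional Patched medulloblastomas (n = 6) and CD15 negative cells of conventional Patched medulloblastomas (n = 6). Math1, the product of Atoh1, marks granule neuron precursors, and GFP is a fluorescent reporter protein. The labels do not describe the reporter allele further, and the sample descriptions of the Math1-GFP arrays also call the tumours conventional; the titles were followed. All Math1-GFP titles end in le2 and all conventional titles in le1, a suffix the labels do not explain, so that this suffix and the tumour model cannot be told apart. Strain, age, treatment, the exact Patched allele and the number of animals pooled are not given in the sources used here, nor do the labels tie arrays to animals. P-values thus measure the spread between arrays of a group, which may be technical.

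Entry into mitosis is driven by Cdk1 bound to cyclin B or cyclin A. Until then the kinase Wee1 keeps Cdk1 phosphorylated and inactive, and the Cdc25 phosphatases remove that phosphate. Plk1 promotes entry by activating Cdc25 and by marking Wee1 for destruction. The transcription factor FoxM1, with B-Myb and the MuvB complex, raises the transcripts of many of these genes in G2 phase. Their promoters often hold a CHR, the cell cycle genes homology region to which MuvB binds, and CCAAT boxes, to which the factor NF-Y binds. Granule neuron precursors divide in response to Hedgehog ligand and leave the cell cycle as they become neurons.

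The promoters of members are shown because these genes are known for such shared elements. Windows were looked for in the 9 measured members except Cdc25c, which was left out of the search, and were found for 5. They are RefSeq windows on GRCm38.p6, printed 5′ to 3′ on the gene's strand. Each runs from 250 bases before to 50 bases after an annotated transcription start. That start is the outer end of the annotated gene for Cdk1, Ccnb2 and Plk1, and lies 61 bases inside it for Cdc25a and 512 bases inside it for Cdc25b. Capitals mark a CHR, searched on both strands as TTTGAA, as its variant TTTAAA and as the rarer spelling TTCGAA, and a CCAAT box, searched as CCAAT on both strands, so that a box on the opposite strand reads ATTGG. No CHR match overlapped a CCAAT match. Cdk1 is at chr10:69352863-69353162 (minus strand), Ccnb2 at chr9:70421505-70421804 (minus), Plk1 at chr7:122159185-122159484 (plus), Cdc25b at chr2:131186698-131186997 (plus) and Cdc25a at chr9:109875329-109875628 (plus).
Cdk1: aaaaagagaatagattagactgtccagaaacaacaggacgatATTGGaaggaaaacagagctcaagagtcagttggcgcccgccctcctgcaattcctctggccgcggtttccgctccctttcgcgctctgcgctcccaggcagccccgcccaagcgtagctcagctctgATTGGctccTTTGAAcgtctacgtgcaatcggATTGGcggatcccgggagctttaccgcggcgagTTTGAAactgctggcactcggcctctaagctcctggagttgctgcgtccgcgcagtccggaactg
Ccnb2: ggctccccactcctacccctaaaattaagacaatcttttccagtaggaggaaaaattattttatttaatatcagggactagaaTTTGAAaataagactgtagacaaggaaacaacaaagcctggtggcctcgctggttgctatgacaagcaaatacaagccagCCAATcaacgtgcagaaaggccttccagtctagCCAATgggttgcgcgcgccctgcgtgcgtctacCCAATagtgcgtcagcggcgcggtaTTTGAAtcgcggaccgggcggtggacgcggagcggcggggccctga
Plk1: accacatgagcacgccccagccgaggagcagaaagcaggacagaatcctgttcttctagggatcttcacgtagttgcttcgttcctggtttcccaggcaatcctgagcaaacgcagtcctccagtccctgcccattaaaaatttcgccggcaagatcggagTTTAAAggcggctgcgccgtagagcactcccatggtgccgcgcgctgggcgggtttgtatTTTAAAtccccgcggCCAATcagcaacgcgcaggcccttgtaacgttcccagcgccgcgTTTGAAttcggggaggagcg
Cdc25b: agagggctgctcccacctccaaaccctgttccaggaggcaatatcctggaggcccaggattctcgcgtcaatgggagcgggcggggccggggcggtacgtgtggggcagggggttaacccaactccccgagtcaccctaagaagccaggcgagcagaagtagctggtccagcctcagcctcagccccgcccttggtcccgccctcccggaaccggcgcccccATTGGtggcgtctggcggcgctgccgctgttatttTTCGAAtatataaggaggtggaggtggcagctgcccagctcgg
Cdc25a: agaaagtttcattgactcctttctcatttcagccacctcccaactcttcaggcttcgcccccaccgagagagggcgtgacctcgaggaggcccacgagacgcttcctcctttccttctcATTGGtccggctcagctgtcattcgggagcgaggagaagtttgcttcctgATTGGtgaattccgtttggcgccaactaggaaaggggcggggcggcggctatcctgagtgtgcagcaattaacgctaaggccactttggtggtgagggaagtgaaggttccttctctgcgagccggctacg

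A CHR match stood in the windows of Cdk1 (2 matches), Ccnb2 (2), Plk1 (3) and Cdc25b (1), and Cdc25a had 0. All 5 windows held a CCAAT box: 3 in Cdk1, 3 in Ccnb2, 1 in Plk1, 1 in Cdc25b and 2 in Cdc25a. Of 32851 promoter windows of the same length, 28.8% held at least 1 of the 3 CHR spellings, 37.4% held CCAAT on either strand and 11.3% held both. TTTGAA, the spelling of both matches in Cdk1 and in Ccnb2 and of 1 match in Plk1, was in 17.9% of all windows. TTTAAA, the spelling of the other 2 matches in Plk1, was in 13.2%, and TTCGAA, the spelling in Cdc25b, was in 1.56%. A match is a run of letters and not a measured binding site. Ccna2, Foxm1 and Wee1, for which no window was found, and Cdc25c, which was not searched, are named only.

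Signals are the deposited intensities, on a linear scale with the same trimmed mean on every array. All tests were limma fits of log2(signal + 32) to 4 group means over the 21 arrays, with Benjamini-Hochberg adjustment over the 12367 genes within a comparison and a threshold of 0.05. Fold changes are therefore on the log2(signal + 32) scale, which understates the change of dim genes, and are given with the standard error (SE) of the fit. Levels of different genes are not compared with each other. The RNA came from mixed cells of a fraction, so that fewer cells of a type and less RNA per cell cannot be told apart.

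All 8 granule lineage markers of the list (Atoh1, Barhl1, Zic1, Zic2, Pax6, Neurod1, Gli1 and Gli2) passed the filter. So did all 8 markers of differentiated neurons, all 10 of microglia and macrophages, all 7 of astrocytes and all 7 of mural cells and fibroblasts. Passing the filter thus does not identify the tissue. Markers of differentiated neurons moved with the CD15 fraction in conventional tumours: 7 of 8 fell in CD15 positive cells, as did 5.09% of all genes. Their median log2 fold change was -1.18. Their summed signal was 5747 to 10480 in CD15 positive cells, against 11526 to 24969 in CD15 negative cells. In Math1-GFP tumours that sum was 5631 to 9823 in CD15 positive cells and 9977 to 16150 in CD15 negative cells. There 0 of 8 were called, against 0.0404% of all genes, and 0 of 8 had a positive log2 fold change (median -0.81). Microglia and macrophage markers summed to 658 to 12052 in conventional CD15 positive cells and 237 to 3354 in conventional CD15 negative cells, and to 328 to 1573 in Math1-GFP CD15 positive cells and 213 to 484 in Math1-GFP CD15 negative cells. None of the 10 microglia markers passed the test between the fractions of either model, against 8.13% of all genes in conventional and 0.0404% in Math1-GFP tumours. Their log2 fold changes were nonetheless positive in 10 of 10 in conventional (median 0.83) and 9 of 10 in Math1-GFP tumours (0.46). Astrocyte markers were positive in 6 of 7 in both models (medians 0.40 and 1.11), also with 0 called. Mural cell and fibroblast markers were positive in 0 of 7 (median -0.59) and 6 of 7 (0.31), with 0 called. The 2 erythroid markers with a probe set were below the filter. The part of these other cells in the results below was not tested.

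In conventional tumours, the Cdk1 kinase, its cyclins, Plk1 and most of the Cdc25 phosphatases were higher in CD15 positive cells. Of the 9 members, 6 rose and 0 fell: Cdk1, Ccnb2, Ccna2, Plk1, Cdc25b and Cdc25c. Over all 12367 genes tested, 8.13% passed this test and 3.05% rose. The median log2 fold change of the 9 members was 0.91, against a median of -0.017 over all genes. Cdc25a, Wee1 and Foxm1 did not pass; Wee1 did when the mean of its probe sets was used (0.39, limma adjusted p = 0.023). In 4 of the 9 members every CD15 positive array was above every CD15 negative array, as was so for 1.89% of all genes.

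**Figure D1:**
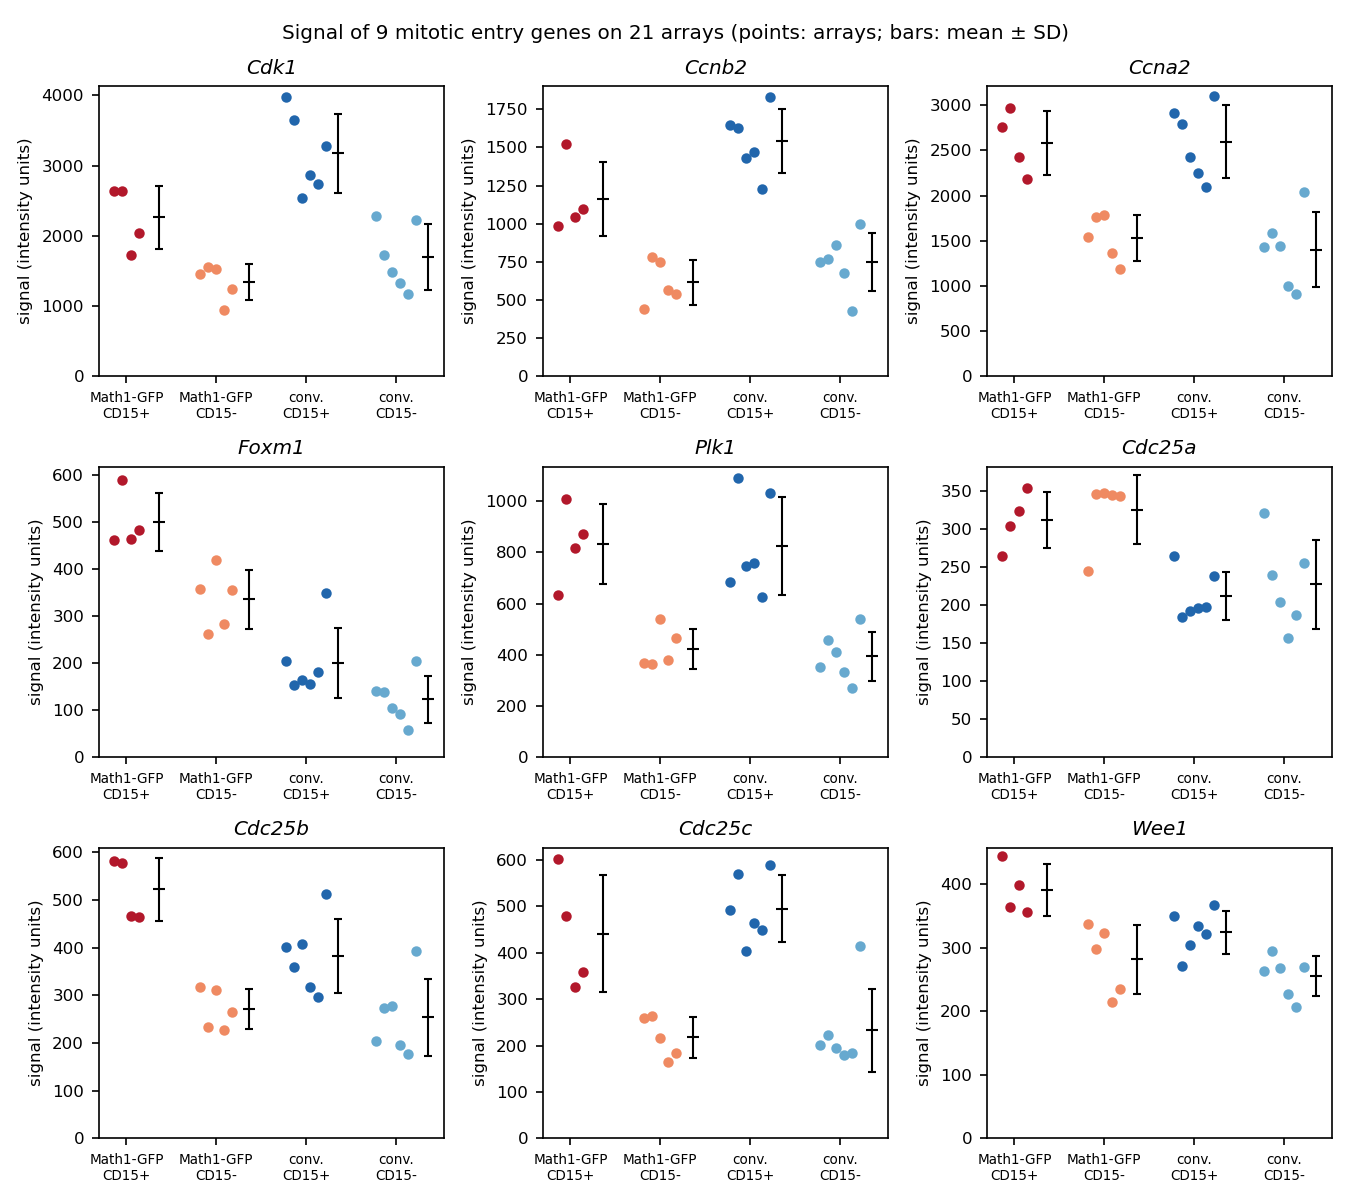
Signal of each member's brightest probe set on every array, 1 panel per gene. The horizontal axis gives the 4 groups (Math1-GFP CD15+, Math1-GFP CD15-, conventional CD15+, conventional CD15-) and the vertical axis the deposited signal in intensity units, from 0. Points are arrays and bars are the group mean ± SD; Cdk1, for example, averages 2262 in Math1-GFP CD15+ cells, 1346 in Math1-GFP CD15- cells, 3176 in conventional CD15+ cells and 1699 in conventional CD15- cells.

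Cdk1 is the kinase that drives mitotic entry. In conventional tumours its signal ran from 2540 over a median of 3072 to 3982 in the 6 CD15 positive arrays, against 1168 over a median of 1604 to 2279 in the 6 CD15 negative arrays, with no overlap. The mean was 3176 ± 562 in CD15 positive and 1699 ± 464 in CD15 negative cells (SD, n = 6 each), and the log2 fold change of 0.91 ± 0.17 (SE) had a limma adjusted p of 0.0028. In Math1-GFP tumours Cdk1 read 2638, 2637, 1734 and 2040 in the CD15 positive arrays, against 1461, 1553, 1527, 945 and 1242 in the CD15 negative arrays. These groups did not overlap either, and the log2 fold change of 0.74 ± 0.20 had a limma adjusted p of 0.16.

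Ccnb2 encodes cyclin B2, a partner of Cdk1 in mitosis. Its conventional signal was 1228 to 1832 (median 1549) in CD15 positive arrays and 431 to 1001 (median 758) in CD15 negative arrays, and all of the CD15 positive arrays lay above all of the CD15 negative ones. The log2 fold change was 1.04 ± 0.17 (limma adjusted p = 0.0010). In Math1-GFP tumours Ccnb2 read 984, 1521, 1046 and 1095 in CD15 positive arrays and 440, 780, 752, 564 and 541 in CD15 negative arrays, again with no overlap, for a log2 fold change of 0.89 ± 0.20 (limma adjusted p = 0.096).

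Ccna2 encodes cyclin A2, which serves Cdk2 in S phase and Cdk1 in G2 phase. Its conventional signal was 2100 to 3104 (median 2610) in CD15 positive arrays, against 916 to 2044 (median 1435) in CD15 negative arrays. The highest CD15 negative array, number 6, lay just below the lowest CD15 positive one. The log2 fold change was 0.91 ± 0.17 (limma adjusted p = 0.0020). The 4 Math1-GFP CD15 positive arrays read 2756, 2975, 2429 and 2179, against 1537, 1758, 1790, 1368 and 1192 in the 5 CD15 negative arrays, with no overlap and a log2 fold change of 0.75 ± 0.19 (limma adjusted p = 0.14). A second Ccna2 probe set, 1417911_at, gave 0.95 ± 0.14 in conventional tumours when every probe set was tested (limma adjusted p = 6.8e-04).

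Plk1 encodes the Polo-like kinase of mitosis. It read 627 to 1091 (median 753) in conventional CD15 positive arrays and 269 to 540 (median 383) in conventional CD15 negative arrays, with no overlap, and averaged 823 ± 191 in CD15 positive and 394 ± 96.2 in CD15 negative cells (SD, n = 6 each). Its log2 fold change of 1.01 ± 0.17 had a limma adjusted p of 9.4e-04. In Math1-GFP tumours Plk1 read 633, 1009, 818 and 872 in CD15 positive arrays and 367, 362, 539, 379 and 464 in CD15 negative arrays. Those groups did not overlap, and the log2 fold change was 0.93 ± 0.19 (limma adjusted p = 0.078).

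Of the 3 Cdc25 phosphatases, 2 rose in conventional CD15 positive cells, Cdc25c and Cdc25b. Cdc25c, which acts at the G2 to M transition, read 403 to 590 (median 478) in conventional CD15 positive arrays and 180 to 414 (median 197) in conventional CD15 negative arrays, and its log2 fold change was 1.04 ± 0.18 (limma adjusted p = 0.0013). The groups overlapped through CD15 negative array 6 alone, at 414; the other CD15 negative arrays were at 223 or lower. In Math1-GFP tumours Cdc25c read 603, 479, 326 and 358 in CD15 positive arrays, against 260, 264, 216, 166 and 183 in CD15 negative arrays, for 0.90 ± 0.21 (limma adjusted p = 0.096).

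Cdc25b, known as a starter of Cdk1 activation at the centrosome, read 297 to 512 (median 380) in CD15 positive arrays and 177 to 393 (median 239) in CD15 negative arrays of conventional tumours, which overlapped, and its log2 fold change was 0.56 ± 0.16 (limma adjusted p = 0.031). The call was lost without CD15 positive array 3, 6 or the one with no number, and without CD15 negative array 4, 5 or the one with no number (limma adjusted p of 0.060 to 0.090). In Math1-GFP tumours the Cdc25b arrays separated, with 582, 577, 467 and 463 in CD15 positive cells and 318, 233, 311, 228 and 264 in CD15 negative cells, and the log2 fold change was 0.88 ± 0.18 (limma adjusted p = 0.078).

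Cdc25a, which serves the G1 to S transition as well as mitosis, showed no difference past the spread between arrays in either model. It read 185 to 264 (median 197) in conventional CD15 positive arrays and 157 to 321 (median 222) in conventional CD15 negative arrays, for a log2 fold change of -0.07 ± 0.14 (limma adjusted p = 0.83; 95% interval -0.35 to 0.22). In Math1-GFP tumours it read 265, 304, 325 and 354 in CD15 positive arrays and 244, 347, 348, 345 and 344 in CD15 negative arrays, for -0.05 ± 0.16 (limma adjusted p = 0.97). Of the 5 members with a promoter window, Cdc25a was the one with no CHR match, and 28.8% of all windows held a match. Wee1 and Foxm1, which also did not pass in conventional tumours, had no window to search. The same holds for Ccna2, which rose, and Cdc25c, which also rose, was left out of the search. Any link between a CHR match and the CD15 difference was not tested.

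Wee1 encodes the kinase that holds Cdk1 inactive. Through probe set 1416773_at it read 271 to 366 (median 327) in conventional CD15 positive arrays and 207 to 295 (median 266) in conventional CD15 negative arrays, and the log2 fold change of 0.31 ± 0.11 had a limma adjusted p of 0.098. The dimmer Wee1 probe set, 1416774_at, read 90.7 to 126 in conventional CD15 positive arrays and 43.0 to 89.1 in conventional CD15 negative arrays without overlap, and passed when every probe set was tested (0.47 ± 0.13, limma adjusted p = 0.029). In Math1-GFP tumours probe set 1416773_at read 445, 364, 398 and 357 in CD15 positive arrays and 337, 298, 323, 215 and 234 in CD15 negative arrays, for a log2 fold change of 0.45 ± 0.13 (limma adjusted p = 0.19).

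Foxm1 encodes the transcription factor upstream of several of the others. It read 153 to 348 (median 172) in conventional CD15 positive arrays and 58.9 to 204 (median 122) in conventional CD15 negative arrays, which overlapped, for a log2 fold change of 0.60 ± 0.20 (limma adjusted p = 0.070). In Math1-GFP tumours it read 462, 590, 464 and 482 in CD15 positive arrays, against 358, 263, 418, 283 and 357 in CD15 negative arrays, with no overlap, for 0.54 ± 0.23 (limma adjusted p = 0.48). With each array left out in turn, the conventional value ranged from 0.45 (without CD15 positive array 6) to 0.73 (without CD15 negative array 6), and 1 of the 21 fits called it, the one without CD15 negative array 6 (limma adjusted p of 0.020, against up to 0.18 in the others).

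Tested across every probe set past the filter (23211 in all, of which 5.91% were called), 9 of the members' 15 probe sets rose in conventional CD15 positive cells and 0 fell. The additions to the brightest probe sets were Ccna2 1417911_at and Wee1 1416774_at, above, and Cdc25c 1422252_a_at (0.71 ± 0.17, limma adjusted p = 0.017).

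The conventional titles carry the numbers 2 to 6 in both fractions, and 1 array of each fraction has no number. Within the 5 numbered pairs, the CD15 positive array was above the CD15 negative array in 5 of 5 pairs for Cdk1, Ccnb2, Ccna2, Foxm1, Plk1, Cdc25b and Cdc25c. Plk1 differences ranged from 0.81 to 1.20 on the log2 scale, Ccnb2 differences from 0.71 to 1.44, and Foxm1 differences from 0.12 to 1.23. Wee1 was higher in CD15 positive cells in 4 of 5 pairs (-0.11 to 0.56) and Cdc25a in 2 of 5 (-0.33 to 0.27). With the number as a block, on the numbered arrays, 7 members were called, against 9.99% of all genes in that fit, and Foxm1 passed with 0.63 ± 0.15 (limma adjusted p = 0.015).

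**Figure D2:**
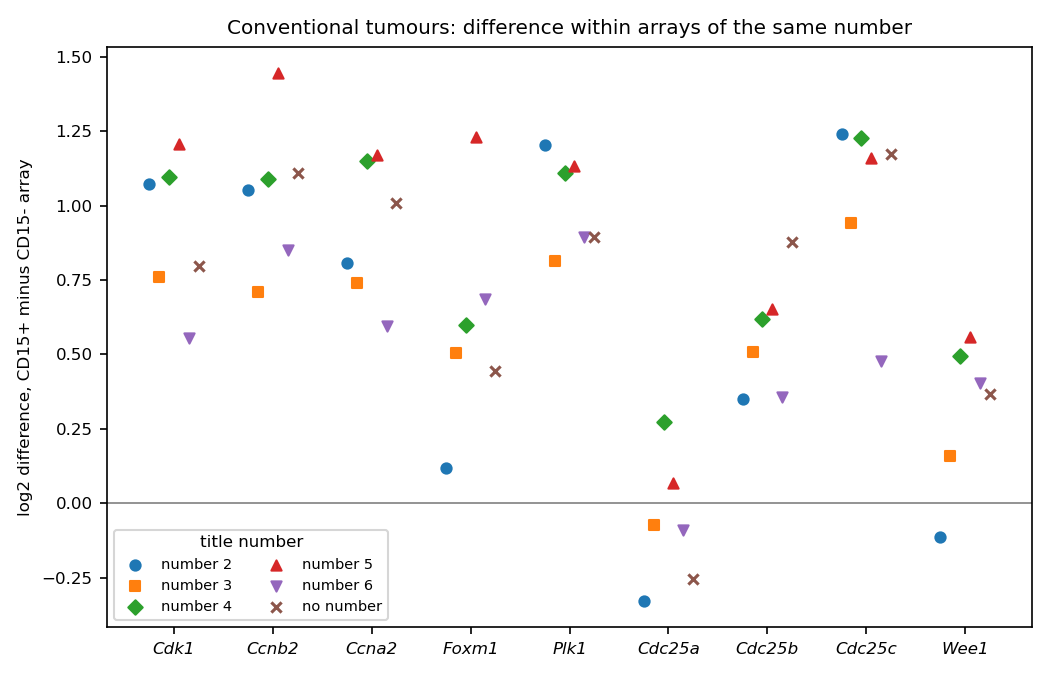
Difference in log2(signal + 32) between the CD15 positive and the CD15 negative array of the same title number in conventional tumours (vertical axis) for each member (horizontal axis). Each symbol is 1 pair, with a cross for the arrays that carry no number. All 5 numbered pairs lie above 0 for Cdk1, Ccnb2, Ccna2, Foxm1, Plk1, Cdc25b and Cdc25c, and the Cdc25a pairs lie on both sides of 0.

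The conventional arrays were divided by title number into 2 sets, numbers 2 to 5 (8 arrays) and number 6 with the arrays without a number (4 arrays). The mean whole-array r was 0.958 within the sets and 0.928 between them. No clustering was run, and the mean within the sets includes the same-number pairs. Within numbers 2 to 5, 7 members rose, against 7.24% of all genes called, with log2 fold changes of 1.03 for Cdk1, 1.07 for Ccnb2, 0.97 for Ccna2, 1.06 for Plk1, 0.53 for Cdc25b, 1.14 for Cdc25c and 0.61 for Foxm1. Within the other set, of 2 arrays a fraction, the values were 0.68 for Cdk1, 0.98 for Ccnb2, 0.80 for Ccna2, 0.89 for Plk1, 0.62 for Cdc25b, 0.83 for Cdc25c and 0.57 for Foxm1. There 0 members and 0 genes in all passed (limma adjusted p of 0.33 to 0.63 for these 7).

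In Math1-GFP tumours, 8 of the 9 members had a positive log2 fold change between the CD15 fractions and 0 passed the test. Over all genes 0.0404% passed, or 5 genes, with limma. At an unadjusted p under 0.05 there were 8 members, against 8.68% of all genes. The median log2 fold change of the members was 0.75, against 0.0048 over all genes. Through the brightest probe sets, every CD15 positive array was above every CD15 negative array in 8 of 9 members, Cdc25a being the exception. The background for such separation was 2.54% of genes. Of the dimmer probe sets, Ccna2 1417911_at and Foxm1 1448833_at also separated the groups. The groups overlapped for Foxm1 1417748_x_at, Cdc25c 1422252_a_at, Wee1 1416774_at and Cdc25a 1417132_at. With the conventional title numbers as a block, 1.40% of all genes (173) and 6 members passed: Cdk1 (limma adjusted p = 0.042), Ccnb2 (0.024), Ccna2 (0.023), Plk1 (0.0093), Cdc25b (0.0055) and Cdc25c (0.0254). Their fold changes were those of the main fit and only the SE fell, for Cdc25b from 0.18 to 0.12. The block takes the spread between conventional pairs out of the shared estimate, while the Math1-GFP arrays stay unpaired. These calls are therefore not added evidence for Math1-GFP tumours. On the same numbered arrays without the block, 0 members passed. With each array left out, Plk1 passed in 3 of 21 fits (without conventional CD15 negative array 5 or 6, or Math1-GFP CD15 positive array 1), and its adjusted p reached 0.30 without Math1-GFP CD15 positive array 5.

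**Figure D3:**
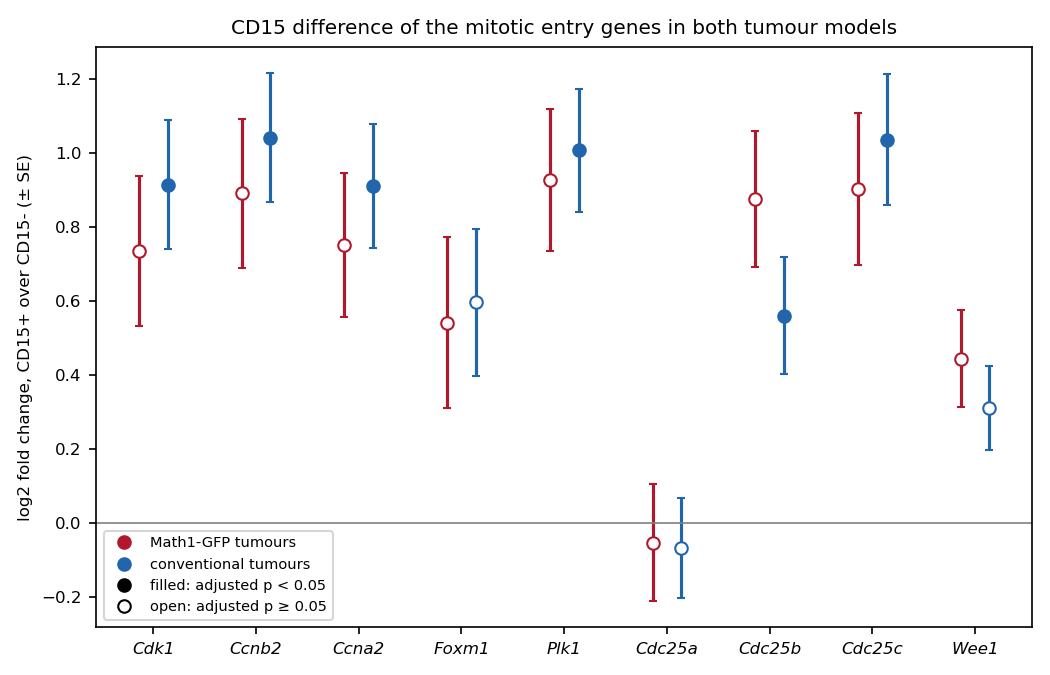
Log2 fold change of CD15 positive over CD15 negative cells (vertical axis) for each member (horizontal axis), with Math1-GFP tumours left of conventional tumours; bars are ± SE of the limma fit and filled points passed the test. Cdk1, for example, lies at 0.74 in Math1-GFP and 0.91 in conventional tumours, and Cdc25a lies near 0 in both.

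The difference between the models' CD15 effects was tested as an interaction. None of the 9 members passed with limma, nor did any other gene (0% called); at an unadjusted p under 0.05 there were 0 members and 279 genes, or 2.26%. The intervals leave room for sizeable differences. For Cdk1 the Math1-GFP effect minus the conventional one was -0.18 on the log2 scale (95% interval -0.74 to 0.38), for Plk1 it was -0.08 (-0.61 to 0.45), for Cdc25b 0.31 (-0.19 to 0.82) and for Wee1 0.13 (-0.23 to 0.49).

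Between the models, Foxm1 was the member with the widest gap, and Cdc25a had a smaller one. In CD15 positive cells 2 of 9 members, Foxm1 and Cdc25a, rose in Math1-GFP over conventional tumours and 0 fell, against a background of 23.1% of genes called (10.9% higher and 12.2% lower). In CD15 negative cells the same 2 members rose and 0 fell, against 18.4% of genes called (7.91% higher and 10.5% lower). Every Math1-GFP array was above every conventional one for both genes in CD15 positive cells, as for 6.26% of all genes, and for Foxm1 in CD15 negative cells, as for 4.03%. The share of members called was thus near the background in both fractions, and is not a result about the members as a group.

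For Foxm1, Math1-GFP CD15 positive arrays averaged 499 ± 61.3 (n = 4) and conventional CD15 positive arrays 201 ± 74.5 (n = 6; SD), with no overlap, and the log2 fold change of 1.23 ± 0.22 had a limma adjusted p of 5.6e-04. In CD15 negative cells the means were 336 ± 63.1 in Math1-GFP (n = 5) and 123 ± 50.1 in conventional tumours (n = 6; SD), again with no overlap, for 1.29 ± 0.21 (limma adjusted p = 3.2e-04). On the fitted scale these are 2.35-fold and 2.44-fold. All 3 Foxm1 probe sets past the filter were higher in Math1-GFP cells and called in both fractions, among every probe set (26.2% called in CD15 positive and 23.6% in CD15 negative cells). The dimmer 2 gave 0.64 and 0.78 in CD15 positive cells and 0.59 and 0.52 in CD15 negative cells, so that the size depended on the probe set.

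Cdc25a averaged 312 ± 37.2 in Math1-GFP CD15 positive arrays (n = 4) and 212 ± 31.6 in conventional CD15 positive arrays (n = 6; SD), with the ranges just apart (265 at the lowest Math1-GFP array and 264 at the highest conventional one; log2 fold change 0.50 ± 0.15, limma adjusted p = 0.023). In CD15 negative cells it averaged 326 ± 45.4 in Math1-GFP (n = 5) and 227 ± 58.1 in conventional tumours (n = 6; SD), with overlap, for 0.48 ± 0.14 (limma adjusted p = 0.023). The second Cdc25a probe set, 1417132_at, did not pass in either fraction, at -0.07 and 0.20. The call in CD15 positive cells was lost without Math1-GFP array 7 or 9, and that in CD15 negative cells without Math1-GFP array 6, 8 or 10 or conventional array 4.

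The probe sets of Wee1 also differed between the models. Probe set 1416774_at read 212, 235, 220 and 200 in Math1-GFP CD15 positive arrays, against 90.7 to 126 in conventional CD15 positive arrays. In CD15 negative arrays it read 226, 168, 164, 136 and 125 in Math1-GFP tumours and 43.0 to 89.1 in conventional tumours. It passed in both fractions, at 0.86 ± 0.14 (limma adjusted p = 1.7e-04) and 0.97 ± 0.13 (2.6e-05), while the brighter 1416773_at, at 0.25 and 0.12, passed in neither. The log2 ratio of 1416774_at to 1416773_at within an array was -0.97 to -0.52 in Math1-GFP arrays and -1.98 to -1.12 in conventional arrays, without overlap; this shows only that the probe sets changed unequally between the models. The second Ccna2 probe set, 1417911_at, passed in CD15 negative cells (0.50 ± 0.15, limma adjusted p = 0.020) and stood at 0.29 (0.20) in CD15 positive cells. Which of the Wee1 probe sets follows the amount of Wee1 transcript was not tested.

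**Figure D4:**
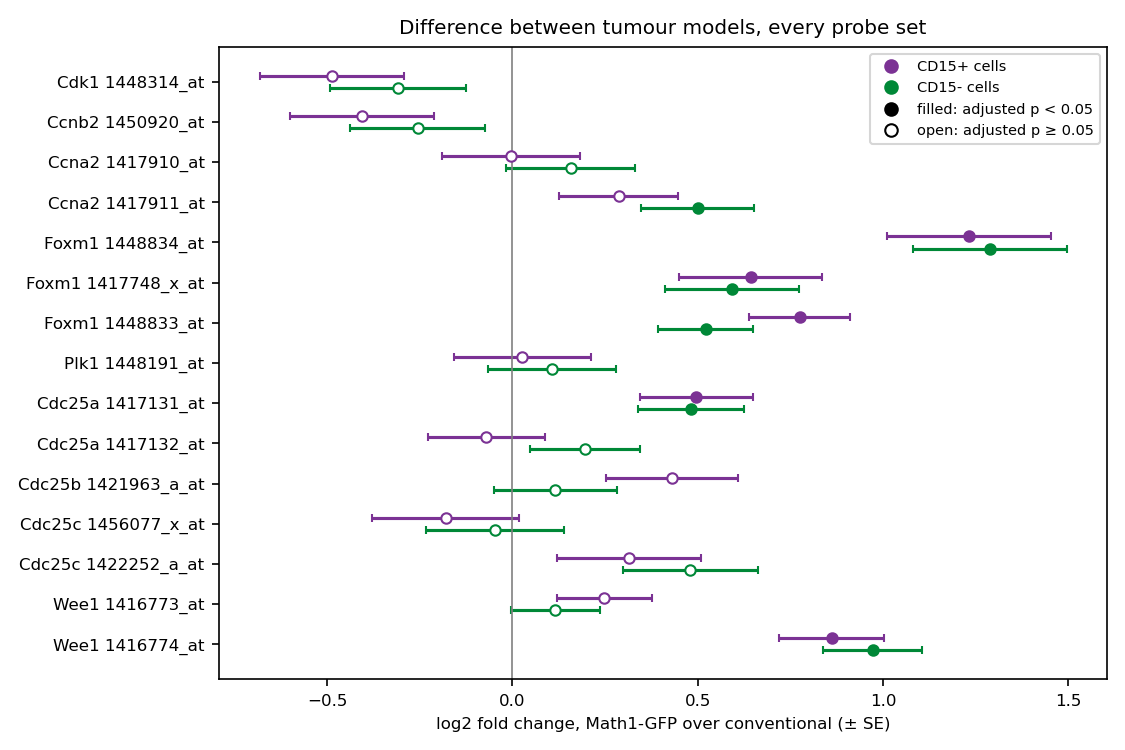
Log2 fold change of Math1-GFP over conventional tumours for each of the members' 15 probe sets past the filter, with CD15 positive above CD15 negative cells within each probe set; bars are ± SE of the limma fit over every probe set and filled points passed the test. The 3 Foxm1 probe sets lie between 0.52 and 1.29, and Wee1 1416774_at lies at 0.86 and 0.97 while Wee1 1416773_at lies at 0.25 and 0.12.

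Cdk1, Ccnb2, Ccna2, Plk1 and Cdc25c had values on either side of 0 between the models in CD15 positive cells, of -0.49 ± 0.20 (limma adjusted p = 0.077), -0.41 ± 0.19 (0.14), -0.0028 (0.99), 0.03 (0.94) and -0.18 (0.55). In CD15 negative cells the brightest probe sets of these genes gave -0.31, -0.26, 0.16, 0.11 and -0.05, and none passed. The second Cdc25c probe set, 1422252_a_at, differed in sign from the brighter one. Among every probe set it gave 0.31 ± 0.19 (limma adjusted p = 0.24) in CD15 positive and 0.48 ± 0.18 (0.061) in CD15 negative cells. Cdc25b stood at 0.43 ± 0.18 (limma adjusted p = 0.084) in CD15 positive cells. It passed in 2 of 21 fits with an array left out (without conventional array 6 of either fraction). Its adjusted p reached 0.19 without Math1-GFP CD15 positive array 5. With the replicate block Cdc25b also passed (limma adjusted p = 0.011), as did 31.4% of all genes. The block takes the spread between conventional pairs out of the error. A comparison between models needs that spread, so this p-value is too small. With array weights, Cdk1 was called lower in Math1-GFP CD15 positive cells (-0.51, limma adjusted p = 0.040).

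Other genes of the pathway were taken from lists. These lists were chosen with earlier results of these data known, so their counts are a description and not independent support. Of 18 partners of mitotic entry, 10 rose in conventional CD15 positive cells and 0 fell, with a median log2 fold change of 0.47. The named examples were Cks1b and Cks2, small proteins that bind Cdk1 and its relatives (0.61 ± 0.08, limma adjusted p = 1.5e-04, and 0.94 ± 0.15, 8.7e-04), and Gtse1, a microtubule-binding protein of G2 and S phase (0.65 ± 0.13, 0.0039). Aurka, Bora and Tpx2, which act in the activation of Plk1 and Aurora A, were among those that rose. All 16 of 16 other G2 and M phase targets of FoxM1 or MuvB rose, with a median of 0.86, among them Birc5 (survivin; 1.00 ± 0.10, limma adjusted p = 1.1e-05), the centromeric histone Cenpa (0.95 ± 0.15, 5.9e-04) and the ubiquitin-conjugating enzyme Ube2c (1.16 ± 0.18, 7.5e-04). Of 10 MuvB, B-Myb and pocket protein partners, 1 rose (Rbbp4, 0.30 ± 0.09, limma adjusted p = 0.043) and 0 fell, with a median of 0.28; Rbl1 (0.55, 0.069) and Tfdp1 (0.43, 0.13) were next in order of p.

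Of 16 S phase genes, 8 rose and 0 fell in conventional CD15 positive cells, with a median of 0.48; Rrm1, Mcm7 and Gins1 gave 0.51, 0.42 and 0.54 (limma adjusted p = 0.0071, 0.0078 and 0.0084). Of 12 tested paralogs of the members outside mitotic entry, 2 rose, Plk4 of centriole duplication (0.64 ± 0.11, limma adjusted p = 0.0013) and cyclin D1 (Ccnd1; 0.46 ± 0.12, 0.021), and 1 fell, Plk3 (-0.60 ± 0.16, 0.027). These counts stand beside the 3.05% of all genes that rose and 5.09% that fell, and come from lists chosen with earlier results known. In Math1-GFP tumours 1 gene of the 5 lists passed, Birc5 (0.74, limma adjusted p = 0.030), and the medians were 0.39 for the partners, 0.74 for the targets, 0.11 for the MuvB list, 0.15 for the paralogs and 0.11 for S phase. The neuron marker sums given above were lower in CD15 positive cells of both models, opposite in direction to the medians of these lists. Their part in the counts was not tested.

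The members' variation from array to array within groups was also described. With group means taken off, Ccna2 correlated at 0.92 with the mean of the other members over the 21 arrays, Foxm1 at 0.80, Cdc25b at 0.79, Cdk1 at 0.75, Ccnb2 at 0.74, Cdc25c at 0.66, Plk1 at 0.63, Wee1 at 0.53 and Cdc25a at 0.40. Within the 9 Math1-GFP arrays these values were 0.81 for Cdk1, 0.75 for Ccna2, 0.60 for Cdc25b, 0.49 for Foxm1, 0.47 for Ccnb2, 0.46 for Wee1, 0.45 for Cdc25c, 0.25 for Plk1 and -0.29 for Cdc25a. Within the 12 conventional arrays they ran from 0.61 for Cdc25a to 0.97 for Ccna2. The difference between the models was not tested. The 5 genes outside the list whose deviations were most like the members' mean were Tpx2 (Pearson r of 0.95), Aurkb (0.95), Tacc3 (0.91), Cdc20 (0.91) and Kif23 (0.91). The arrays share their scaling, and the numbered conventional arrays deviate in pairs, so these values describe the arrays and carry no p.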

How the data were processed

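RNA of 21 sorted tumour cell samples had been hybridised to single-colour Affymetrix arrays of 45101 probe sets. The deposited values are linear intensities, and the authors' steps behind them are not given in the sources used here. Every array has the same trimmed mean (2% off each end), which was taken as normalization between arrays, so no quantile step was added. Array medians were 22.1 to 32.7, and the number of arrays limits the precision.

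In the platform annotation, after 64 control probe sets were removed, 34945 had 1 gene symbol, 932 had several and 9160 had none. Only those with 1 symbol were used, which leaves out a probe set shared by Foxm1 and 2 other genes. Probe sets below the 40th percentile of mean log2(signal + 32) were left out, and the brightest per gene was kept. limma 3.58.1 in R 4.3.3 fitted 4 group means (17 residual degrees of freedom), with two-sided moderated tests and Benjamini-Hochberg adjustment over genes; intervals are 95%. The fit was checked on simulated data with independent arrays, which does not cover the pairing of the conventional arrays described below. Promoter windows are RefSeq's.

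The members, the 5 further lists and the markers were chosen with earlier results of these data known. All members are named; from each further list, the 3 genes of smallest p in the conventional comparison, and the 5 genes most like the members' mean. Aurka, Bora and Tpx2 were named after their values were seen.

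The titles' numbers 2 to 6 pair conventional arrays: deviations from group means correlated at 0.58 to 0.76 in the 5 same-number pairs and at -0.56 to 0.48 in the 30 other pairs; the arrays without a number correlated at 0.72, but no label pairs them. Math1-GFP groups share no number.

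The alternatives tried were a smaller and a larger pseudocount, quantile normalization, every probe set or the mean over those of a gene, the filter off or set at the 60th percentile, the contrast's groups alone, trend and robust eBayes, array weights, the replicate block, the numbered arrays without it, leaving out Math1-GFP arrays 1 and 2, each conventional set, and each array in turn.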

Additional observations from a re-analysis of the deposited data

Results flagged for a closer look

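Dixon's test for an array that stands apart was run in 36 groups (9 members in 4 groups) and picked out 3. At its 95% level chance picks about 5% of groups.

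Foxm1 in conventional CD15 positive array 6 had a log2 value of 8.57, a signal of 348 against 204 in the nearest array of the group. Its gap was 0.659 of the group's range. Without this array the Foxm1 difference between models in CD15 positive cells stayed past the threshold.

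Cdc25c in conventional CD15 negative array 6 had a log2 value of 8.80, a signal of 414 against 223 in the nearest array (gap 0.751 of the range). That array was also the highest of its group for Foxm1, Ccnb2, Ccna2, Plk1 and Cdc25b.

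Cdc25a in Math1-GFP CD15 negative array 2 was low, with a log2 value of 8.11 and a signal of 244 against 344 in the nearest array (gap 0.968 of the range). The other 4 arrays of the group lay between 344 and 348.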

How the results depend on the processing

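The members' fold changes and counts were recomputed under other settings: 36 for the conventional comparison, 34 for Math1-GFP and for each model comparison, and 33 for the interaction, of which 21 left out 1 array. The further lists, pairs, correlations and promoter matches were not. Of the members' values, 1484 kept their direction and their side of the threshold, 31 gained a call, 24 lost one and 0 reversed with a call; in 53 of the 1484 a value past the threshold in neither setting changed sign around 0. The numbers of members called changed as follows, with the cause not tested unless stated. In Math1-GFP tumours the CD15 comparison called 2 members at the larger pseudocount (17 of all genes), 5 with array weights (187 genes) and 6 with the replicate block (173 genes), against 0 (5 genes). Between models in CD15 positive cells, quantile normalization called 1 (22.2% of all genes) and array weights 4, of which 3 were higher and Cdk1 lower (32.6%), against 2 (23.1%); in CD15 negative cells the contrast's groups alone called 1 (15.9%), against 2 (18.4%). In conventional tumours, the set of number 6 and the arrays without a number called 0 members, 0 of their probe sets and 0 genes in all; it holds fewer arrays. The replicate block otherwise changed only the Foxm1 call in conventional tumours and the Cdc25b call between models. Where Math1-GFP arrays enter a comparison, the block leaves the spread between conventional pairs out of the error. Its calls there are not added evidence. With each array left out, the conventional comparison called 5 to 7 members, Math1-GFP 0 to 3, the interaction 0, the models 1 to 3 in CD15 positive and 1 to 2 in CD15 negative cells, and every probe set 6 to 11. Over all genes, the conventional count was 606 to 1100 (606 without CD15 negative array 5) and the Math1-GFP count 0 to 26.

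The Cdc25b call in conventional tumours was lost with those groups alone (adjusted p = 0.085) and on numbered arrays without the block (0.108). The Cdc25a calls between models were lost with the mean of probe sets (0.26 in CD15 positive and 0.060 in CD15 negative cells), and that in CD15 positive cells with quantile normalization (0.079). With that mean Wee1 passed between models (0.55 and 0.54) and in the conventional comparison (0.39). Foxm1 between models was called in every alternative run. Signals near 15.5 and below were not tested.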

Other observations

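Between the models, genes of the further lists moved in both directions. In CD15 positive cells, 7 of 16 S phase genes fell in Math1-GFP against conventional tumours and 0 rose, with a median log2 fold change of -0.40; they were Mcm5, Mcm7, Gins1, Gins2, Pcna, Fen1 and Rfc4. In CD15 negative cells 3 rose (Rrm1, Mcm2 and Mcm6) and 1 fell (Gins1), with a median of 0.10. These counts stand beside 12.2% of all genes that fell and 10.9% that rose in CD15 positive cells, and 10.5% and 7.91% in CD15 negative cells. Cell type markers also differed between the models. In Math1-GFP CD15 positive cells 4 of 10 microglia markers fell, with a median of -1.58, and 2 of 6 oligodendrocyte lineage markers rose, with a median of 0.66. In CD15 negative cells 3 of 7 mural cell and fibroblast markers fell, with a median of -1.31. The part of these cells was not tested.

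Of the 18 mitotic entry partners, 4 passed in CD15 positive cells (2 rose and 2 fell) and 2 in CD15 negative cells (1 rose and 1 fell), shares of the list near or below those of all genes. Mastl, the Greatwall kinase that restrains the phosphatase opposing Cdk1, rose in Math1-GFP cells (0.88 ± 0.20, limma adjusted p = 0.0040 in CD15 positive, and 0.70 ± 0.19, 0.015 in CD15 negative cells). The Cdk-binding protein Cks1b fell (-0.65 ± 0.09, limma adjusted p = 4.7e-05, and -0.47 ± 0.08, 6.4e-04). From the other lists, the cyclin D partner Cdk4 fell (-0.76 ± 0.13, limma adjusted p = 2.5e-04, and -0.61 ± 0.12, 0.0014), and the kinetochore protein Cenpf rose (0.80 ± 0.18, limma adjusted p = 0.0038, and 0.83 ± 0.17, 0.0024). These genes were chosen after their values were seen.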
